A study of Mus musculus with 36 samples.

Results

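The liver of young mice at the time point labelled 96 was compared with young liver before regeneration, in 3 libraries against 3, out of 36 in the series. The 6 libraries were chosen by their titles alone. All came from liver of C57BL/6JN mice, an inbred laboratory strain, at an age of 4 months, and no other genotype or agent was given for either group. The series also held young mice at 48, 72, 120 and 240, and old mice (18 months) at the same 6 time points, with 3 libraries in each of the 12 groups. The labels give neither the unit of the time points nor the way in which regeneration was induced, so the groups are called before and 96 here. The study set regeneration in young beside that in old liver, and the comparison described here asks how far young liver at 96 differed from its own state before. Total RNA, depleted of ribosomal RNA, was taken from frozen whole tissue, so fewer cells of a type and less RNA per cell cannot be told apart in any value below. The design text calls the 3 libraries of a group biological replicates but does not say that each came from its own animal, so the p-values measure the spread between these libraries, which may in part be technical.

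As background, the adult liver is a largely resting tissue whose hepatocytes return to the cell cycle when liver mass is lost and then stop dividing once it is restored. Immediate early genes, such as the Fos, Jun and Egr families, code for factors that cells switch on within minutes of a stimulus and that decay quickly. Collagens and other matrix proteins come mainly from hepatic stellate cells and fibroblasts, while hepatocytes carry out glucose, glycogen and fat metabolism and make the acute phase proteins of the blood.

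The 6 libraries held 3716709 to 5992831 counts (median 4738908), with 15618 to 18309 genes detected, and the 10 most abundant genes took 11.5% to 13.0% of the counts. Levels below are in CPM, a gene's count relative to its library's total after scaling by the TMM method, given in the order of the replicate numbers 1, 2 and 3. The biological coefficient of variation, which is the spread between libraries beyond counting error, was 19.7% before and 20.1% at 96. Hepatocyte markers were abundant in all 6 libraries: the 9 measured markers summed to 59773 to 64702 CPM before and 50325 to 54967 CPM at 96, and none of them passed the test. In 1 library of each group, 4 Y-linked genes summed to 277 CPM (before, replicate 1) and 242 CPM (96, replicate 2), against 0 in the other 4 libraries. Xist, the RNA of the inactive X chromosome, stood at 3.12 and 2.66 CPM in those libraries and at 3600.4 to 4168 CPM in the others, although the labels give no sex. All 12 groups of the series held 1 such library.

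At 96, several extracellular matrix genes had risen in young liver, and several immediate early genes and a few genes of glucose, glycogen and fat metabolism had fallen. Of 13436 genes tested, 188 were called at an adjusted p under 0.05 by edgeR's quasi-likelihood test with Benjamini-Hochberg adjustment (1.40% of genes). The calls were 89 genes higher (0.662%) and 99 genes lower (0.737%), and 2054 genes had an unadjusted p under 0.05. Among the called genes the median log2 fold change was 1.75 for the higher and -1.33 for the lower genes, and the median over all genes tested was 0.01. The 3 and 3 libraries did not overlap for 3515 of the 13436 genes tested (26.2%). Among the calls they did not overlap for 86 of the 89 higher and 98 of the 99 lower genes. A lack of overlap named below is to be read beside these shares. With total-count scaling, which moved the median of all genes to 0.13, the split was 145 higher and 65 lower, so directions are relative to the bulk of genes. The count of calls depended on every library: leaving out 1 of the 6 gave 51 genes (without replicate 2 at 96) to 113 genes (without replicate 3 at 96). Without both libraries with Y-linked transcripts, which left fewer libraries per group, 20 genes were called, 3 higher and 17 lower. With these libraries kept and Y-linked transcripts fitted as a term, 268 genes were called, 129 higher and 139 lower. All 188 were among the 268. The spread was estimated over all 36 libraries, and a fit of the 6 libraries alone called 580 genes, of which 140 were among the 188. That fit called 335 genes higher and 245 lower of the 13436. Counts of list members from that fit, given below, stand against these totals. Of 46 genes named here that were called, 5 were called under all alternatives of the analysis (Ppp1r3g, Nr4a1, Jun, Zfp36 and Actg1), and none of the 46 changed direction.

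**Figure D1:**
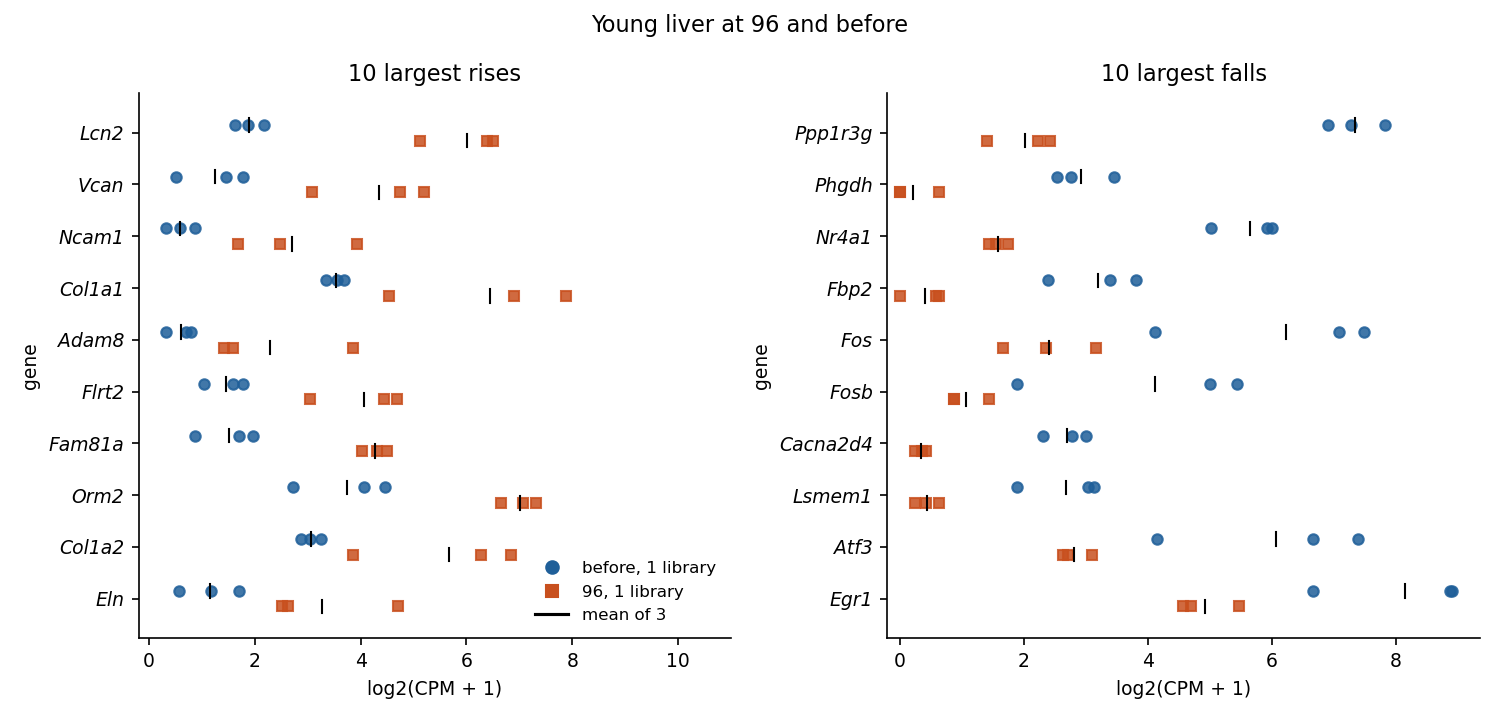
Level of the 10 genes with the largest rise (left) and the largest fall (right) among called genes, as log2(CPM + 1) on the x axis, with 1 gene per row. Circles are the 3 libraries before, squares the 3 libraries at 96, and black ticks the mean of 3; the groups do not overlap for any of the 20 genes because the naming rule required it, and the 3 libraries at 96 spread widely for Col1a1 (22.1 to 234 CPM) and Adam8 (1.66 to 13.5 CPM).

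Of 28 extracellular matrix genes tested, 13 rose and 0 fell, against 0.662% of all genes called higher. The median log2 fold change of the list was 1.45, against 0.01 over all genes tested. The collagens of types I and III stood far above their level before in replicates 1 and 2 at 96 and less so in replicate 3. The fibrillar collagen chain Col1a1 held 11.9, 9.2 and 10.7 CPM before and 119, 234 and 22.1 CPM at 96. All 3 libraries at 96 stood above those before, and replicate 3 was nearest to them. Its log2 fold change was 3.56 ± 0.70 with its SE, at an adjusted p of 0.00994. Col1a2, the partner chain of type I collagen, went from 7.28, 8.46 and 6.3 CPM to 76.4, 114 and 13.5 CPM, a log2 fold change of 3.22 ± 0.57 (adjusted p 0.00522). Col3a1, the type III collagen chain of loose tissue, went from 40.2, 28.8 and 37.8 CPM to 328, 252 and 60.5 CPM (2.59 ± 0.53 on the log2 scale, adjusted p 0.0113). Replicate 3 was again the lowest of the libraries at 96 for both chains.

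Basement membrane and elastic fibre genes were among the genes that rose. Col4a1, a type IV collagen chain of basement membranes, held 29.3, 44 and 40.7 CPM before and 100.4, 131 and 88.2 CPM at 96 (log2 fold change 1.49 ± 0.34, adjusted p 0.0217). Fbn1, which codes for fibrillin of microfibrils, rose from 6.45, 7.46 and 8.23 CPM to 34.4, 26.2 and 13.5 CPM (1.76 ± 0.34, adjusted p 0.00863). Eln, the gene of elastin, held 1.25, 2.24 and 0.484 CPM before and 25, 5.13 and 4.7 CPM at 96 (3.14 ± 0.69, adjusted p 0.015), and replicate 1 alone carried most of its rise. For all 3 genes the libraries at 96 lay above those before. Col6a1, a beaded filament collagen, rose from 13.3, 11.4 and 9.69 CPM to 42.6, 41.2 and 23.8 CPM (1.64 ± 0.33, adjusted p 0.00994). Col5a2, Lum, Loxl2, Sparc, Mmp2 and Thbs1 completed the 13, with log2 fold changes between 1.26 (Sparc, a collagen-binding glycoprotein) and 3.36 (Thbs1, thrombospondin). Thbs1 was the 1 called member whose groups overlapped, at 4.99, 4.48 and 5.33 CPM before and 29.8, 118 and 3.87 CPM at 96. Of all 89 genes called higher, 86 had groups that did not overlap.

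Other matrix genes did not pass the test. Fn1, the gene of fibronectin, which hepatocytes also make, held 1294, 1963 and 1572 CPM before and 1581, 1163 and 1632 CPM at 96, and Dcn, the proteoglycan decorin, held 78.4, 81.6 and 125 and 97.7, 90.8 and 92.9 CPM. Their log2 fold changes were -0.14 ± 0.23 (adjusted p 0.832) and -0.02 ± 0.24 (adjusted p 0.983), and the groups overlapped for both. Lox, a collagen cross-linking enzyme, went from 0.832, 0.746 and 1.69 CPM to 10.9, 20.9 and 0.829 CPM, with replicate 3 at 96 within the range before (log2 fold change 3.32 ± 1.00, adjusted p 0.0895). The median of log2(CPM + 1) over the tested members was 3.79, 3.72 and 3.70 in the libraries before and 5.29, 5.63 and 4.43 at 96. By this median, replicate 3 stood apart from the other libraries at 96. The fit of the 6 libraries alone called 10 members higher, and Col1a1, Col1a2, Col3a1 and Eln were not among them. Leaving out replicate 3 at 96 gave 14 members called higher, and leaving out replicate 2 at 96 gave 3. Leaving out replicate 1 at 96 gave 5, and leaving out 1 library before gave 4 or 5. Without both libraries with Y-linked transcripts 0 members were called, although the median stayed positive at 1.16.

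Of 12 marker genes of stellate cells and fibroblasts, Col1a1 and Col3a1 rose and Ecm1 fell, against 0.662% of all genes called higher and 0.737% called lower. The changes were positive for 6 and negative for 6 of the 12, with a median log2 fold change of 0.05. Without both libraries with Y-linked transcripts none of the 12 was called. The 12 markers summed to 539, 522 and 688 CPM before and to 885, 959 and 555 CPM at 96, where replicate 3 again lay within the range before. Lrat and Reln, markers of stellate cells that are not matrix collagens, held 107, 106 and 167 CPM and 83.8, 69.1 and 86.7 CPM before, and 84.2, 112 and 123 CPM and 56.7, 81.5 and 61.6 CPM at 96. Both pairs overlapped, with log2 fold changes of -0.26 ± 0.29 (adjusted p 0.743) and -0.26 ± 0.27 (adjusted p 0.708). Ecm1, a secreted matrix glycoprotein, fell from 113, 119.6 and 135 CPM to 64.4, 57.2 and 74.6 CPM (-0.91 ± 0.19, adjusted p 0.011). Acta2, smooth muscle actin of activated stellate cells, held 0.208, 0.249 and 2.18 CPM before and 8.38, 3.61 and 0.276 CPM at 96 (2.28 ± 0.81, adjusted p 0.162), with overlapping groups.

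Macrophage markers stood above their level before beside the matrix genes, without a call in the fit of all 36 libraries. All 9 tested markers of monocytes and recruited macrophages had a positive change, none was called, and their median was 1.30, or 0.71 without replicate 2 at 96. Without replicate 3 at 96, 2 of these markers were called higher, against 72 of all 13436 genes. Their sum was 98.8, 99.2 and 123 CPM before and 154, 389 and 119 CPM at 96, so replicate 2 at 96 was the highest and replicate 3 lay within the range before. Itgam, an integrin of myeloid cells, held 1.46, 1.99 and 2.66 CPM before and 10.9, 24.9 and 4.98 CPM at 96 (log2 fold change 2.75 ± 0.75, adjusted p 0.0586). Gpnmb, a marker of lipid-associated macrophages, held 0.208, 0 and 0.726 CPM before and 0.335, 44.7 and 0.276 CPM at 96, so its change rested on replicate 2 (5.50 ± 1.45, adjusted p 0.0537). The 10 Kupffer cell markers, of the resident macrophages, also all had a positive change (median 0.44, 0 called), and summed to 677 to 849 CPM before and 1010.0 to 1183 CPM at 96. The fit of the 6 libraries alone called 3 Kupffer cell markers higher, against 335 of all 13436 genes. None of the markers of the other cell types was called: summed levels at 96 and before were 987 to 1029 and 1156 to 1275 CPM for 12 sinusoidal endothelial markers, and 8.21 to 13.3 and 3.48 to 5.62 CPM for 7 neutrophil markers. They were 92.5 to 182 and 79.1 to 103 CPM for 10 bile duct markers, with replicate 2 at 96 the highest, and 47.3 to 71.6 and 41.6 to 51.5 CPM for 4 red cell markers. A fit of the 18 young libraries alone called 2 endothelial markers lower, against 213 of all 13436 genes. Summed levels of the T and natural killer cell markers (11 measured) and of the B cell markers (7 measured) did not exceed 12.9 CPM in any of the 6 libraries. The part of these cells in the matrix change was not tested.

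**Figure D2:**
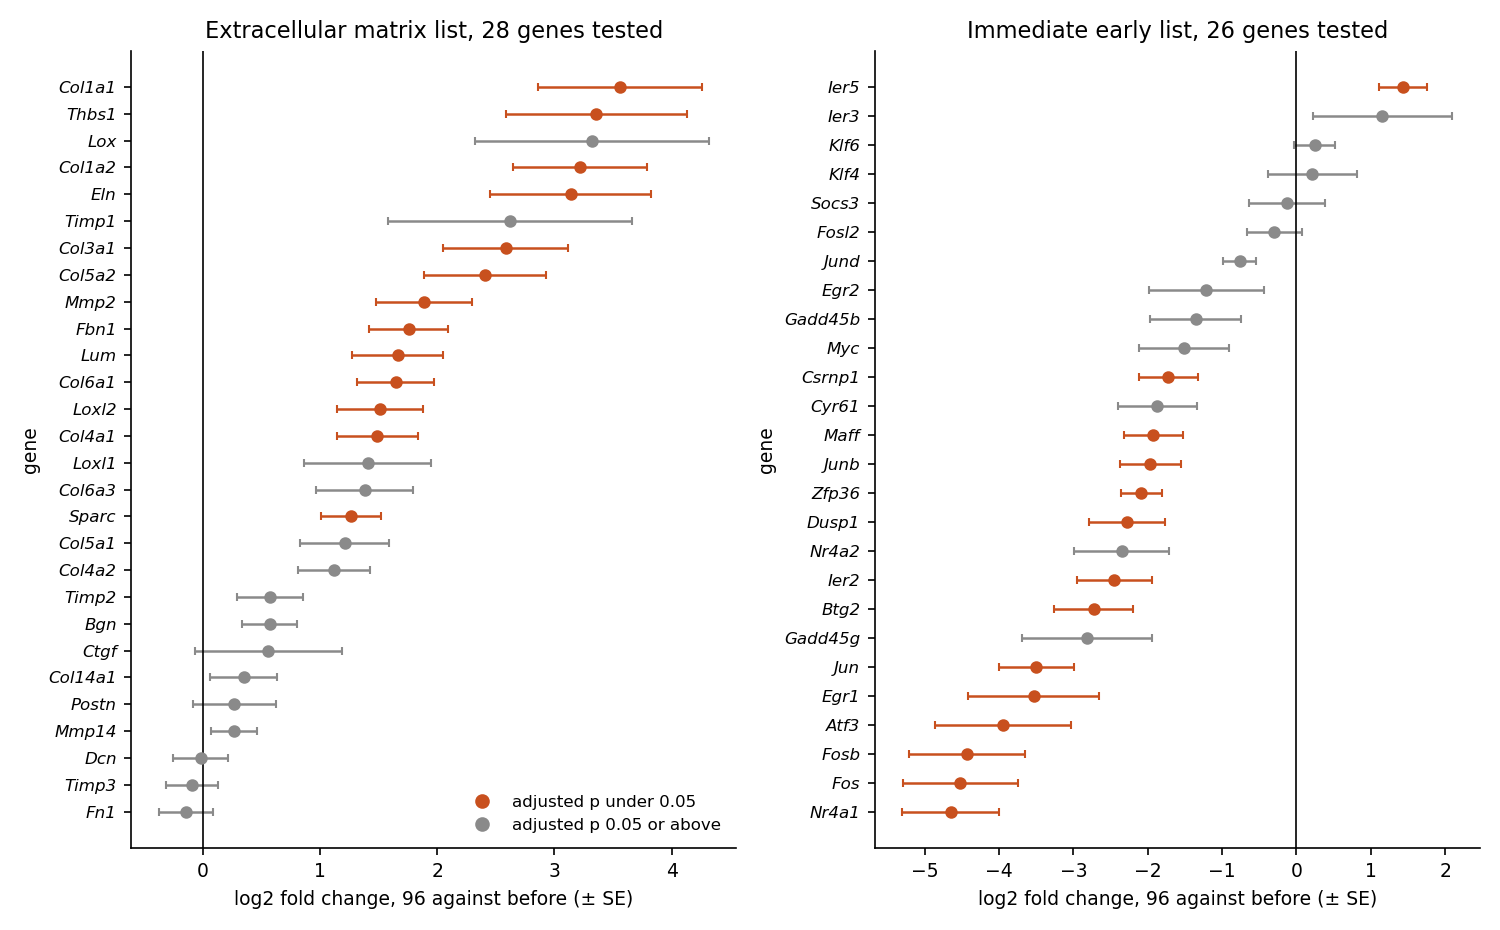
Log2 fold change of young liver at 96 against before (x axis, with bars of 1 SE from edgeR) for each tested member of the extracellular matrix list (left, 28 genes) and the immediate early list (right, 26 genes), 1 gene per row. Coloured points passed an adjusted p under 0.05 and grey points did not: 13 matrix genes were called higher, and 13 immediate early genes were called lower with Ier5 as the 1 called higher.

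Of 26 immediate early genes tested, 13 fell and 1 rose at 96, against 0.737% of all genes called lower. The median log2 fold change of the list was -1.94. The promoters of 3 of the 4 members with the smallest adjusted p are shown here because these genes fell together: the 250 bases before the gene's start, 5′ to 3′ on the strand of the gene, from RefSeq on GRCm38.p6. Capitals mark TGACG (in either orientation, so that CGTCA is its reverse complement), the core bound by factors of the CREB and ATF family, or a CArG box, the site of serum response factor. Zfp36 lies at chr7:28379229-28379478 on the minus strand, Nr4a1 at chr15:101266596-101266845 on the plus strand and Fos at chr12:85473640-85473889 on the plus strand.
Zfp36: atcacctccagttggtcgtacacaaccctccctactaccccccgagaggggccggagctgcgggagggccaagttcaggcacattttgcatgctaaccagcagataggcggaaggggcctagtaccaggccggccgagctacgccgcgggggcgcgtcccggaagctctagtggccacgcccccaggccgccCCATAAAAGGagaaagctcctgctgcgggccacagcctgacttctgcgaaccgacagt
Nr4a1: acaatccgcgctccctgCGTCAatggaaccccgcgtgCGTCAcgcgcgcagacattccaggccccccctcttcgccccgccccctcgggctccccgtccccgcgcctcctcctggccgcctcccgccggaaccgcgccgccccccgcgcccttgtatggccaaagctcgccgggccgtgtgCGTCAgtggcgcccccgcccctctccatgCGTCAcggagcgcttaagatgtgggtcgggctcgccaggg
Fos: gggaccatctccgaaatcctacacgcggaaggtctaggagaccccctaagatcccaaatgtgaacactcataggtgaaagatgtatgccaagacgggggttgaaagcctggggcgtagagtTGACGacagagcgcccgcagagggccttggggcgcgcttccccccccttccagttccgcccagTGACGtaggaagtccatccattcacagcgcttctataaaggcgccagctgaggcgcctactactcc
Nr4a1 holds TGACG at 4 places, all on the opposite strand, between 233 and 36 bases before the start, and Fos holds it at 2 places, 129 and 66 bases before the start. Zfp36 holds 1 CArG box, 58 to 49 bases before the start. CACGTG, the E-box of clock factors, was in none of these windows, and the window of Jun, the remaining gene, held none of the 3 motifs and is not shown. TGACG was found on either strand in 9 of the 11 called lower members with an entry, and in 17.8% of the 32851 promoter windows of the same length. CACGTG was found in 2 of the 11 and in 6.02% of windows, and the CArG box, which was added after the data were seen, in 1 of the 11 and in 1.47%. The counts are of genes with a match in any of their windows, while the percentages are shares of single windows. A match describes letters, not binding.

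Zfp36, which codes for an RNA-binding protein that speeds the decay of cytokine messages, held 223, 393 and 309 CPM before and 62.4, 75.6 and 79.3 CPM at 96. The groups stood well apart, with a log2 fold change of -2.09 ± 0.28 (adjusted p 0.000108). Nr4a1, an orphan nuclear receptor, fell from 31.4, 59.4 and 63.2 CPM to 2.35, 1.71 and 1.93 CPM (-4.65 ± 0.65, adjusted p 0.000256). Jun, a subunit of the AP-1 factor, fell from 434, 823 and 933 CPM to 47.4, 93.1 and 53.1 CPM (-3.50 ± 0.51, adjusted p 0.000412). Each of these genes was called under every alternative of the analysis.

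Replicate 1 before, which held Y-linked transcripts, was the lowest of its group for Zfp36, Nr4a1 and Jun. It also stood below the other libraries of its group for Fos, Fosb, Egr1 and Atf3. Fos, the AP-1 partner of Jun, held 16.4, 179.6 and 134 CPM before and 2.18, 7.98 and 4.15 CPM at 96 (log2 fold change -4.52 ± 0.77, adjusted p 0.00374). Fosb held 2.7, 42.5 and 31 CPM before and 0.838, 1.71 and 0.829 CPM at 96 (-4.44 ± 0.78, adjusted p 0.00374). The same library was the lowest before for Egr1, a zinc finger factor, at 101, 481 and 472 CPM, against 25, 22.8 and 43.7 CPM at 96 (-3.54 ± 0.88, adjusted p 0.0402). It was the lowest for Atf3, a stress-induced repressor, at 16.9, 101 and 167 CPM, against 5.2, 7.6 and 5.53 CPM at 96 (-3.95 ± 0.91, adjusted p 0.0254). No library at 96 reached the lowest library before for any of these 4 genes. Without both libraries with Y-linked transcripts, Fos changed by -5.68 ± 0.83 (adjusted p 0.00131) and Fosb by -5.41 ± 0.82 (adjusted p 0.00131), while Egr1 (adjusted p 0.177) and Atf3 (adjusted p 0.0978) were no longer called.

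The remaining called members were Junb, Ier2, Btg2, Dusp1, Maff and Csrnp1, with log2 fold changes from -1.72 (Csrnp1) to -2.73 (Btg2). Dusp1, a phosphatase that switches off MAP kinases, did not share the low replicate: it held 220.3, 189.8 and 139 CPM before and 25.5, 53 and 34.3 CPM at 96 (-2.28 ± 0.51, adjusted p 0.0199). Ier5 went the other way, from 6.66, 9.45 and 8.96 CPM to 15.3, 23.9 and 29 CPM (1.44 ± 0.32, adjusted p 0.017), and was not called when any 1 library other than replicate 1 at 96 was left out. Klf4, Klf6 and Socs3, a feedback inhibitor of cytokine signalling, had overlapping groups, and Socs3 held 62.4, 29.1 and 36.3 CPM before and 27.5, 43.3 and 47.3 CPM at 96. Myc, a growth-promoting factor, held 114, 12.9 and 18.6 CPM before and 11.6, 27.7 and 11.9 CPM at 96, so that replicate 1 before alone was high (-1.51 ± 0.61, adjusted p 0.22). Across the list, the median of log2(CPM + 1) over the tested members was 5.72, 5.79 and 5.81 before and 4.00, 4.77 and 4.12 at 96. The number called lower was 5, 7 and 9 without replicate 1, 2 and 3 at 96, 12, 8 and 9 without replicate 1, 2 and 3 before, 6 in a fit of the 6 libraries alone, and 7 without both libraries with Y-linked transcripts.

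Of 15 genes of glucose and glycogen metabolism tested, 5 fell and 0 rose at 96, against 0.737% of all genes called lower. The changes were negative for 14 of the 15, with a median log2 fold change of -0.30. Ppp1r3g, a subunit that directs a phosphatase to glycogen, had the largest fall of the genes named, from 226, 155 and 119.9 CPM to 3.69, 4.37 and 1.66 CPM. No library at 96 came near the levels before, and the log2 fold change was -5.62 ± 0.74 (adjusted p 0.000179). Gys2, the liver glycogen synthase, fell from 263, 231 and 280.2 CPM to 94.2, 92.2 and 81.8 CPM (-1.53 ± 0.31, adjusted p 0.00994). G6pc, the catalytic subunit of glucose-6-phosphatase that lets the liver release glucose, fell from 1903, 1459 and 1622 CPM to 365, 398 and 132 CPM (-2.48 ± 0.52, adjusted p 0.0131). Replicate 3 at 96 was the lowest for G6pc.

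The other members that fell were Igfbp1 and Irs2. Igfbp1, an insulin-repressed binding protein of insulin-like growth factors, held 422, 466 and 462 CPM before and 54, 46.6 and 40.4 CPM at 96 (-3.26 ± 0.78, adjusted p 0.0299). Its adjusted p ranged from 7.61e-07 in the fit of the 6 libraries alone to 0.218, and its call was lost when any 1 of the 6 libraries was left out. Irs2, an adaptor of the insulin receptor, fell from 236, 225 and 266 CPM to 33.9, 45.8 and 94.8 CPM (-2.07 ± 0.51, adjusted p 0.0336). Pck1, which catalyses an early step of gluconeogenesis, held 6625, 6747 and 4249.6 CPM before and 4849, 3032 and 4620.1 CPM at 96, with overlapping groups (-0.50 ± 0.31, adjusted p 0.471). Fbp1, the liver form of fructose bisphosphatase, also overlapped, at 547, 537 and 499 CPM and 604, 390.5 and 491 CPM. Its muscle-type paralog Fbp2, which is not a list member, fell from 13.1, 4.23 and 9.44 CPM to 0.503, 0 and 0.553 CPM (-4.62 ± 0.88, adjusted p 0.00863). Leaving out 1 library gave 2 or 3 of the 15 members called lower, with 2 without replicate 2 at 96 and 3 without any of the other 5, and 1 was called without both libraries with Y-linked transcripts.

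All 17 genes of fatty acid synthesis had a negative change, and the median log2 fold change was -0.78. Of these, 3 were called lower, against 0.737% of all genes. Fasn, fatty acid synthase, held 3351, 3181 and 2983 CPM before and 1227, 1354 and 1104 CPM at 96. The groups were tight and far apart, with a log2 fold change of -1.37 ± 0.31 (adjusted p 0.0199). Acaca, the acetyl-CoA carboxylase of the cytosol, fell from 195, 155 and 163 CPM to 112, 116 and 99 CPM (-0.65 ± 0.16, adjusted p 0.0284), and Elovl5, which lengthens polyunsaturated fatty acids, fell from 1550.0, 1403 and 1622 CPM to 707, 528 and 585 CPM (-1.33 ± 0.26, adjusted p 0.00898). Scd1, the desaturase that makes oleate, held 23609, 12971 and 15251 CPM before and 4988, 7423 and 3983 CPM at 96 without overlap, but its log2 fold change of -1.66 ± 0.91 did not pass (adjusted p 0.393). Srebf1, which codes for the factor that drives this pathway, had overlapping groups at 525, 729.7 and 478 CPM and 371, 591 and 571 CPM (-0.18 ± 0.30, adjusted p 0.841). The fit of the 6 libraries alone called 9 members lower. The count was 0 without replicate 2 at 96 or without both libraries with Y-linked transcripts, and 1 without any of the other 5 libraries. No gene of the lists for fatty acid oxidation and ketogenesis (22 tested, median -0.32), cholesterol synthesis (24, median -0.46), bile acids (19, median -0.41) or lipid droplets (15, median -0.13) was called. The fit of the 6 libraries alone called 2, 7, 2 and 2 of their members lower, against 245 of all 13436 genes.

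Of 26 acute phase genes, which the liver induces in inflammation, 2 were called higher and 0 lower (median 0.69), against 0.662% of all genes called higher. The fit of the 6 libraries alone called 7 higher, against 335 of all 13436 genes. Lcn2, the iron-siderophore binding protein lipocalin 2, held 2.08, 3.48 and 2.66 CPM before and 83.1, 33.6 and 89.3 CPM at 96, the largest rise among the called genes named (4.64 ± 0.91, adjusted p 0.00994). Orm2, an orosomucoid, rose from 5.62, 15.7 and 21.1 CPM to 134, 99.2 and 159 CPM (3.22 ± 0.65, adjusted p 0.0108). Orm2 has close paralogs, so its counts are uncertain. Saa1, a serum amyloid, held 49.9, 17.7 and 35.6 CPM before and 382, 166 and 169.7 CPM at 96 without overlap (2.79 ± 1.11, adjusted p 0.213). Hamp, the iron hormone hepcidin, held 204, 125 and 239 CPM and 71.2, 109 and 149 CPM with overlapping groups. Neither call held without both libraries with Y-linked transcripts or without replicate 1 before, and 1 of them held without replicate 3 before. All 25 interferon response genes had a positive change (median 0.62) and none was called, while the fit of the 6 libraries alone called 7 higher.

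Of 19 p53 target genes, 2 were called higher and 3 lower, against 0.662% and 0.737% of all genes. The balance was 5 higher and 1 lower in the fit of the 6 libraries alone, and 0 higher and 2 lower without both libraries with Y-linked transcripts. Phlda3, an inhibitor of AKT signalling, rose from 0.832, 2.49 and 2.42 CPM to 10.4, 10.6 and 9.4 CPM (log2 fold change 2.42 ± 0.51, adjusted p 0.0119), and Eda2r, a receptor of the tumour necrosis factor family, rose from 4.16, 3.73 and 3.87 CPM to 14.6, 27.6 and 25.2 CPM (2.50 ± 0.65, adjusted p 0.0482). Gdf15, a stress hormone of the TGF-beta family, fell from 35.4, 83.6 and 76.8 CPM to 2.18, 10.5 and 12.2 CPM (-3.02 ± 0.57, adjusted p 0.00863). Btg2, an antiproliferative gene that is on the immediate early list too, fell from 62, 283 and 258 CPM to 24.5, 31 and 35.9 CPM (-2.73 ± 0.53, adjusted p 0.00994). Trp53inp1 fell from 444, 699 and 782 CPM to 246, 268 and 224 CPM (-1.38 ± 0.33, adjusted p 0.0256). For these 3 genes replicate 1 before was again the lowest of its group. Cdkn1a, the cyclin-dependent kinase inhibitor p21, held 2.29, 4.23 and 3.87 CPM before and 11.7, 15.8 and 6.91 CPM at 96 without overlap (1.76 ± 0.79, adjusted p 0.281). Without replicate 2 at 96 or replicate 1 before, 0 members were called higher, and 1 was without any of the other 4 libraries. Without replicate 1 or replicate 2 at 96, 1 member was called lower.

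Mitosis genes were above their level before in nearly every case, yet none passed the test. Of 52 members tested, 50 had a positive change and 0 were called, with a median log2 fold change of 2.02. An unadjusted p under 0.05 was reached by 29 of them in the higher direction, against 1126 of all 13436 genes. Mki67, the proliferation marker Ki-67, held 31.4, 45 and 46.5 CPM before and 167, 376 and 266 CPM at 96. Every library at 96 was well above those before, with a log2 fold change of 2.72 ± 0.80 (adjusted p 0.0853). Top2a, the topoisomerase that untangles DNA, held 4.37, 7.96 and 9.93 CPM and 24.1, 49 and 27.6 CPM (2.19 ± 0.81, adjusted p 0.184), and Foxm1, a factor that switches on mitotic genes, held 0.208, 1.99 and 1.21 CPM and 6.87, 14.3 and 9.95 CPM (3.21 ± 0.93, adjusted p 0.0781). Cdk1, the kinase that drives mitosis, held 0, 0.249 and 0.969 CPM and 1.84, 5.51 and 4.15 CPM (3.19 ± 1.02, adjusted p 0.116). Ccnb1, cyclin B1, held 0.208, 0.995 and 0.484 CPM and 1.34, 3.61 and 2.49 CPM (2.12 ± 1.25, adjusted p 0.439). Replicate 2 at 96 was the highest for all 5 genes. Mastl, a kinase that acts at mitotic entry, was 1 of the 2 members with a negative change, at 20.6, 18.9 and 32.4 CPM before and 8.55, 13.9 and 8.85 CPM at 96 (-1.19 ± 0.34, adjusted p 0.0704). The number called differed with the fit and the method. A fit of the 6 libraries alone called 24 members higher and 1 lower, with Mki67 at 2.72 ± 0.32 (adjusted p 0.0079). That fit called 335 higher and 245 lower of all 13436 genes. DESeq2 called 9 higher and 1 lower, and why the numbers differed was not tested. Without both libraries with Y-linked transcripts the median was 1.35.

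DNA replication genes were closer to their level before. Of 44 tested, 42 had a positive change, 0 were called and the median log2 fold change was 0.54. It was 0.33 without replicate 2 at 96 and 0.24 without both libraries with Y-linked transcripts. Mcm2, a subunit of the replicative helicase, held 4.37, 3.98 and 7.02 CPM before and 10.1, 12.5 and 10.2 CPM at 96 (1.10 ± 0.57, adjusted p 0.358). Rrm2, a subunit of ribonucleotide reductase, held 10.2, 8.21 and 8.23 CPM and 8.72, 22.8 and 8.57 CPM with overlapping groups (0.60 ± 0.64, adjusted p 0.72). Of 55 clustered histone genes, whose messages are made in S phase and are near-identical to each other, 49 had a positive change and 0 were called (median 1.16). The fit of the 6 libraries alone called 23 histone and 4 replication genes higher, against 335 of all 13436 genes. Among 27 regulators of entry into S phase, 1 was called, against 0.662% of all genes called higher. It was E2f7, a repressor of the E2F family, which rose from 0.208, 0.995 and 1.21 CPM to 2.85, 5.13 and 4.15 CPM (2.32 ± 0.58, adjusted p 0.0336). E2f7 was not called when any 1 of the 6 libraries, or both with Y-linked transcripts, were left out. Ccnd1, cyclin D1, overlapped between groups at 113, 457 and 429.8 CPM and 526, 209.6 and 577 CPM (0.39 ± 0.65, adjusted p 0.836). Replicate 1 before was its lowest library.

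Of 25 cytoskeletal genes tested, 1 rose and 2 fell, against 0.662% and 0.737% of all genes. Without both libraries with Y-linked transcripts the counts were 1 and 1, and the fit of the 6 libraries alone called 4 higher and 2 lower, without Vim among them. Vim, the intermediate filament vimentin of mesenchymal and white blood cells, rose from 29.1, 11.2 and 18.4 CPM to 71.6, 84.7 and 41.5 CPM (log2 fold change 1.75 ± 0.32, adjusted p 0.00584). Actg1, cytoplasmic gamma actin, fell from 31.6, 96.7 and 71.9 CPM to 11.1, 11.8 and 6.63 CPM (-2.74 ± 0.44, adjusted p 0.00186) and was called under every alternative. Tuba4a, an alpha tubulin, fell from 208, 219 and 263 CPM to 119.9, 142 and 125 CPM (-0.83 ± 0.20, adjusted p 0.028). Members of other lists fell as well. Suz12, a core subunit of the Polycomb complex PRC2, which places repressive methyl marks on histone H3, fell from 51.4, 53.5 and 70.9 CPM to 33.9, 37.2 and 37.6 CPM (-0.69 ± 0.16, adjusted p 0.0176) as the 1 called of 18 genes of Polycomb and DNA methylation. Smad7, an inhibitor of TGF-beta signalling, fell from 80.7, 44.8 and 47.7 CPM to 21.8, 39.1 and 31.8 CPM (-0.91 ± 0.23, adjusted p 0.0405), which with Igfbp1 made 2 of 29 genes of growth hormone and growth factor signalling. The call of Smad7 was lost in 9 of 17 alternatives, total-count scaling and the fit of the 6 libraries alone among them, with an adjusted p of up to 0.322.

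Markers of differentiated hepatocyte function did not pass the test. Alb, the gene of albumin, held 8339, 10035 and 9107 CPM before and 10590.0, 8506 and 8264 CPM at 96, a log2 fold change of -0.01 ± 0.22 (adjusted p 0.994). Cyp7a1, the first enzyme of bile acid synthesis, held 579.8, 701 and 366 CPM and 1600.4, 472 and 884 CPM (0.84 ± 0.98, adjusted p 0.748), with overlap. Afp, the fetal counterpart of albumin, held 2.91, 10.7 and 6.78 CPM and 8.88, 5.32 and 17.4 CPM (0.62 ± 0.51, adjusted p 0.609), and the clock gene Per1 held 110.5, 147 and 64.2 CPM and 89.5, 77.9 and 58 CPM (-0.51 ± 0.46, adjusted p 0.646). No gene was called among 32 cytochrome P450 genes (median -0.17), 27 plasma protein genes (0.09), 27 genes of the urea cycle and amino acid breakdown (-0.10), 19 hepatocyte transcription factors (-0.08) or 19 clock genes (-0.30). The same held for 20 pericentral genes (median 0.02), 15 periportal genes (0.08), 26 genes of the unfolded protein and heat shock response (-0.18), 31 genes of ribosome biogenesis (0.07), 13 genes of fetal liver and biliary progenitors (0.50), 35 sex-biased liver genes (-0.36) and 7 MHC class II genes (-0.86). The fit of the 6 libraries alone called 4 MHC class II genes, 1 clock gene and 1 gene of the unfolded protein response lower, and 1 fetal liver gene higher. That fit called 245 lower and 335 higher of all 13436 genes.

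Several of the genes with the largest changes were in no list. Vcan, the matrix proteoglycan versican, held 0.416, 1.74 and 2.42 CPM before and 25.8, 35.9 and 7.46 CPM at 96 (log2 fold change 3.94 ± 0.80, adjusted p 0.0109). Ncam1, a neural cell adhesion molecule that activated stellate cells also make, went from 0.832, 0.497 and 0.242 CPM to 4.53, 14.3 and 2.21 CPM (3.66 ± 0.81, adjusted p 0.0165), and Adam8, a membrane protease of leukocytes, from 0.624, 0.249 and 0.726 CPM to 2.01, 13.5 and 1.66 CPM (3.36 ± 0.79, adjusted p 0.0237). Replicate 2 at 96 was the highest for all 3, as it was for monocyte markers. Flrt2, a cell adhesion protein, rose from 1.04, 1.99 and 2.42 CPM to 20.8, 24.7 and 7.19 CPM (3.29 ± 0.60), and Fam81a from 0.832, 2.24 and 2.91 CPM to 18.8, 15.2 and 21.6 CPM (3.22 ± 0.76). Among the falls, Phgdh, the first enzyme of serine synthesis, had 87 counts over the 3 libraries before and 2 counts over the 3 at 96, a ratio of 49.8 with a 95% interval of 13.4 to 418 from counting error only. Its levels were 4.79, 9.95 and 5.81 CPM before and 0, 0 and 0.553 CPM at 96 (adjusted p 0.0131). Cacna2d4, an auxiliary subunit of calcium channels, fell from 5.83, 3.98 and 7.02 CPM to 0.335, 0.19 and 0.276 CPM (-4.24 ± 0.95), and Lsmem1 from 2.7, 7.21 and 7.75 CPM to 0.335, 0.19 and 0.553 CPM (-3.99 ± 0.81). In the fit of the 6 libraries alone, Vcan (adjusted p 0.064), Ncam1 (adjusted p 0.0601) and Adam8 (adjusted p 0.168) missed the threshold. Of the 8 genes of this paragraph, none was called without both libraries with Y-linked transcripts.

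**Figure D3:**
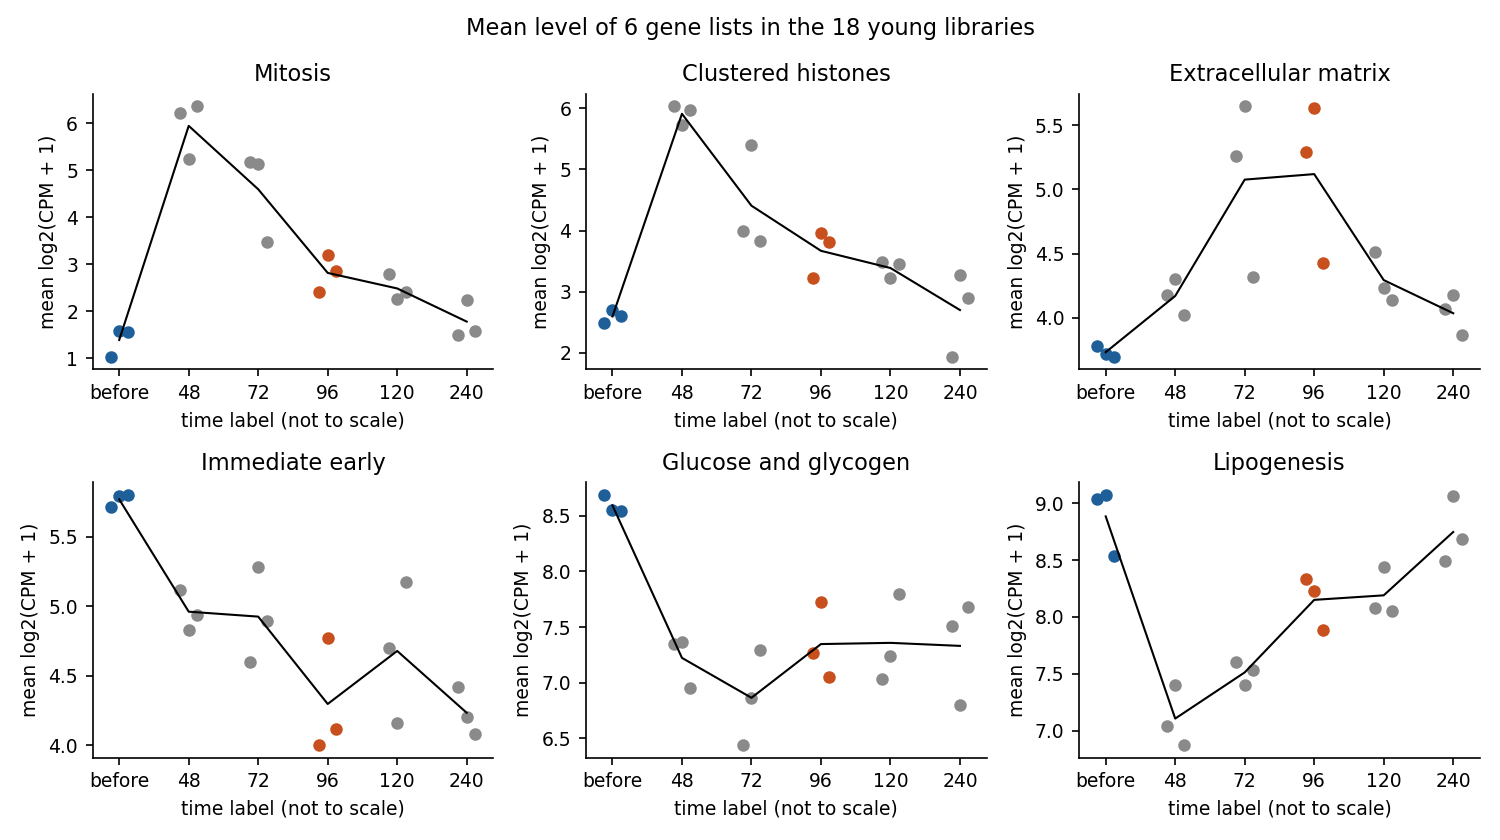
Median of log2(CPM + 1) over the tested members of 6 gene lists (y axis) in the 18 young libraries. The axis label and the title call this median a mean. Time labels on the x axis are spaced evenly and not to scale. Points are libraries, with before in blue and 96 in orange, and lines join the means of 3 libraries. The mitosis median was 1.03 to 1.58 before, 5.24 to 6.37 at 48 and 2.40 to 3.20 at 96. For extracellular matrix, the mean of 3 was highest at 72 and 96.

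Levels in young liver at other time points place these changes in the course of the response. All 5 later time points share the libraries before, so each is given as its own value. Against before, the median log2 fold change of the mitosis list was 5.36, 4.15, 2.02, 1.31 and 0.48 at 48, 72, 96, 120 and 240, and that of the extracellular matrix list was 0.30, 1.57, 1.45, 0.67 and 0.38. The number of matrix genes called higher was 3, 19, 13, 0 and 0 at those time points. For immediate early genes the medians were -1.76, -1.72, -1.94, -1.89 and -2.05, with 14, 13, 13, 9 and 8 members called lower. For lipogenesis they were -1.60, -1.68, -0.78, -0.70 and -0.36, with 15, 14, 3, 0 and 0 called lower. How many of all genes were called against before at 48, 72, 120 and 240 is not given here. The counts of members called can therefore not be set against that share, and their course over time is not a result about these lists. Col1a1 had means of 21.5 ± 3.23 CPM at 48, 147 ± 107 CPM at 72 and 21.3 ± 7.65 CPM at 120 (SD, n = 3), against 125 ± 106 CPM at 96 and 10.6 ± 1.33 CPM before. Fasn had means of 604 ± 105 CPM at 48, 719 ± 47.8 CPM at 72, 1228 ± 125 CPM at 96 and 2292 ± 823 CPM at 240, against 3172 ± 184 CPM before. Ppp1r3g, at 3.24 CPM on average at 96, had means of 0.982 ± 0.496 CPM at 48 and 8.44 ± 4.04 CPM at 240.

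The step from 72 to 96 was tested directly. Of 13436 genes, 50 were called (0.372%), 18 higher and 32 lower at 96, and 1964 had an unadjusted p under 0.05. The 4 genes of smallest p included Mybl1, a MYB factor of proliferating cells, which held 24.1, 54.2 and 12.2 CPM at 72 and 5.03, 2.66 and 3.59 CPM at 96 (log2 fold change -2.98 ± 0.56, adjusted p 0.026). Dusp8, a MAP kinase phosphatase, fell from 6.12, 8.51 and 5.6 CPM to 0.503, 0.57 and 0.829 CPM (-3.40 ± 0.64, adjusted p 0.026), and Nedd4l, a ubiquitin ligase, from 57.7, 40.3 and 49.9 CPM to 17.1, 19.2 and 15.8 CPM (-1.50 ± 0.27, adjusted p 0.026). Shpk, sedoheptulose kinase, rose from 38.4, 28.7 and 50.1 CPM to 79.1, 68.6 and 78.5 CPM (0.95 ± 0.18, adjusted p 0.026). The mitosis list had a median of -2.09 in this step, with 1 of 52 members called lower. That member was Mastl, at -1.49 ± 0.34 (adjusted p 0.046), and like Pklr below it is named after its value was seen. The extracellular matrix list had a median of -0.03 and 0 called, and the immediate early list -0.34 and 0 called. Of the lipogenesis list 1 of 17 was called, Pklr, a pyruvate kinase, which rose by 1.56 ± 0.35. Leaving out replicate 3 at 72, which had the lowest mitosis and matrix levels of its group, gave 315 calls, and leaving out any 1 of the other 5 libraries gave 0.

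Between 96 and 120, edgeR's quasi-likelihood test called 0 of 13436 genes (0%), with 345 at an unadjusted p under 0.05, and DESeq2 called 1. Of the 4 genes of smallest p, 3 were muscle genes that were high in 1 library at 120. Ttn, the giant muscle protein titin, held 6.03, 4.18 and 8.02 CPM at 96 and 1559, 6.3 and 5.14 CPM at 120 (log2 fold change 6.45 ± 1.27, adjusted p 0.406). Cmya5 and Atp2a1, the calcium pump of fast muscle, were high in the same library, at 80.3 and 148 CPM against at most 2.59 CPM of either in the other 2. Mmp2, a matrix-degrading protease, held 1.04, 2.24 and 3.63 CPM before, 8.88, 11.6 and 4.7 CPM at 96 and 2.73, 2.96 and 1.43 CPM at 120 (-1.79 ± 0.40 from 96 to 120, adjusted p 0.406). It had been called higher at 96 against before (1.89 ± 0.41, adjusted p 0.0143).

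The same contrast in old mice called 917 genes (6.82% of those tested), 505 higher (3.76%) and 412 lower (3.07%). Of the 188 genes called in young mice, 81 were also called in old mice, which is 43.1% of the young and 8.83% of the old calls, and 80 of the 81 changed in the same direction. Of all 188, 173 had the same sign in old mice. The difference between the ages was tested by itself: 2 genes were called (0.0149%), and 1237 had an unadjusted p under 0.05. Ablim3, an actin-binding LIM protein, fell in young mice from 38.9, 56.2 and 53.5 CPM to 29.5, 28.1 and 26 CPM (-0.83 ± 0.20, adjusted p 0.028), while in old mice it rose from 18.5, 21.7 and 22.6 CPM to 50.2, 42.6 and 37.7 CPM (1.05 ± 0.20, adjusted p 0.00301). The difference was 1.87 ± 0.29 (adjusted p 0.00417). Slc16a1, the lactate and ketone transporter MCT1, held 80.7, 113 and 140.2 CPM before and 93.5, 74.7 and 66.1 CPM at 96 in young mice with overlapping groups (-0.51 ± 0.25, adjusted p 0.325). In old mice it rose from 109, 81.3 and 50.9 CPM to 314, 239 and 149 CPM (1.54 ± 0.25, adjusted p 0.00067), and the difference was 2.05 ± 0.35 (adjusted p 0.0174).

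Next by p-value, Pirb, an inhibitory receptor of myeloid cells, held 10.2, 9.2 and 7.99 CPM before and 13.2, 16 and 11.9 CPM at 96 in young mice, against 15.5, 19.7 and 18.3 and 7.73, 5.17 and 6.75 CPM in old mice (difference -2.05 ± 0.45, adjusted p 0.26). Pgpep1, a peptidase, held 97.8, 132 and 116 and 201, 179.9 and 206 CPM in young mice and 117, 133 and 132 and 91, 107 and 104 CPM in old mice (difference -1.10 ± 0.25, adjusted p 0.26). Neither difference passed edgeR's test, while DESeq2 called both and the fit of the groups compared alone called Pirb. The extracellular matrix list had 13 members called higher in young mice and 2 higher and 1 lower in old mice, with medians of 1.45 and 0.50, but the difference between the ages was called for 0 of 28 members (median -0.76). Col1a1 held 7.28, 9.38 and 5.02 CPM before and 24, 28.9 and 6.19 CPM at 96 in old mice, and its difference was -2.11 ± 0.99 (adjusted p 0.518). The mitosis list had 0 of 52 members called in young mice and 44 higher in old mice, with medians of 2.02 and 3.38, and again 0 members with a called difference (median 1.48). The immediate early list had 9 members called lower and 1 higher in old mice, and the lipogenesis list 14 lower, with 0 differences called in either list. Mki67 rose by 3.81 ± 0.84 in old mice (adjusted p 0.00702), and its difference from young mice was 1.09 ± 1.07 (adjusted p 0.821). Leaving out 1 of the 12 libraries gave 1 to 3 genes with a called difference. The count was 3 without old replicate 2 at 96, and 1 without young replicate 2 or 3 at 96, young replicate 2 or 3 before, old replicate 1 at 96, or old replicate 2 or 3 before.

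**Figure D4:**
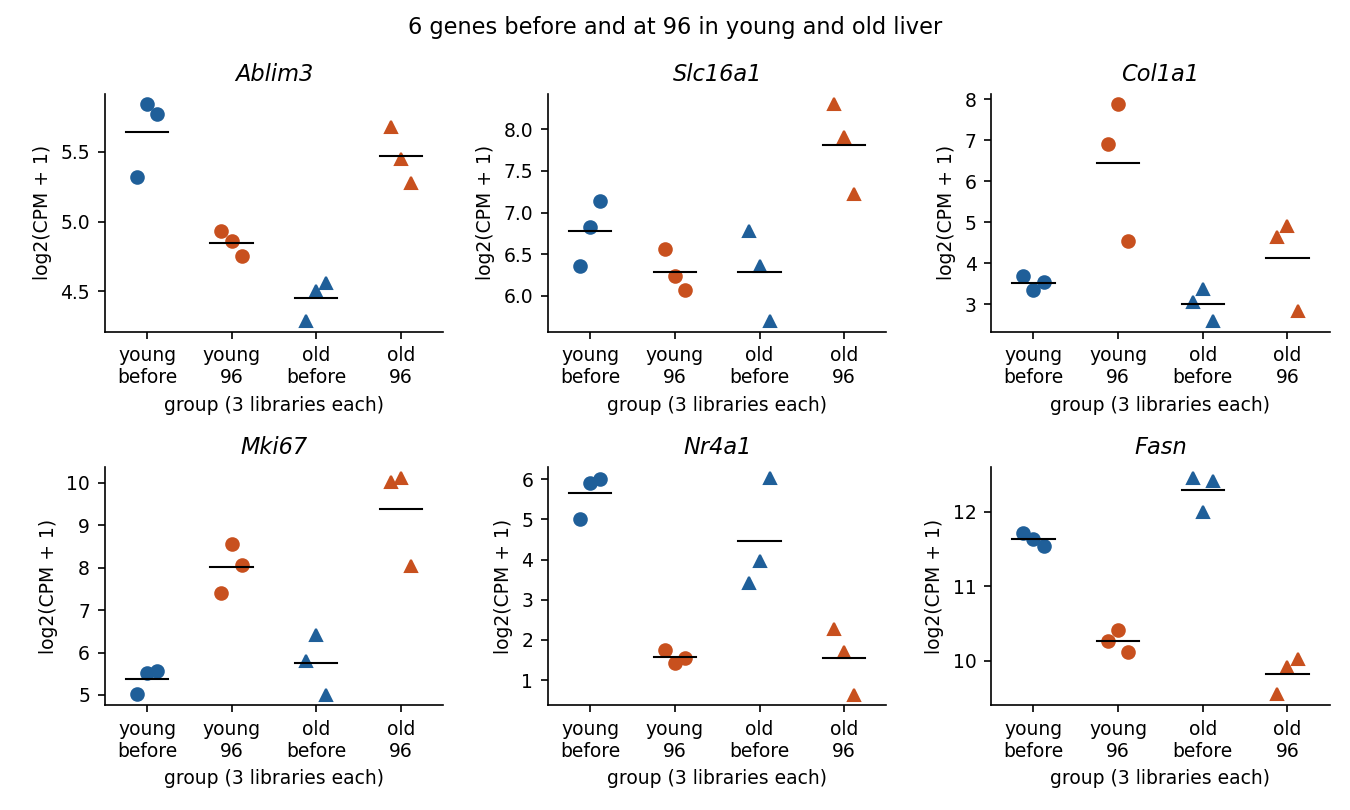
Level of 6 genes as log2(CPM + 1) on the y axis in young (circles) and old (triangles) liver before (blue) and at 96 (orange), with 3 libraries per group and the mean as a black line. Ablim3 moved in opposite directions, with 38.9 to 56.2 CPM before and 26 to 29.5 CPM at 96 in young liver, and 18.5 to 22.6 CPM before and 37.7 to 50.2 CPM at 96 in old liver, while Nr4a1 and Fasn were lower at 96 at both ages.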

How the data were processed

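RNA abundance was measured in 36 libraries, and 6 of them are compared here. Raw counts per gene symbol were deposited by the authors, 1 table per library with 21955 symbols. Per the submitters' processing notes, the tools named were bcl2fastq 2.20.0, Trimmomatic 0.39, FastQC 0.11.9, STAR 2.7.5b, SAMtools 1.10, Picard 2.20.8, deepTools 3.5.0 and featureCounts, with GRCm38/mm10. Their roles, the annotation and the use of strand are not given in the sources used here. Of the rows, 27 had symbols turned into dates by a spreadsheet, and no spike-in was listed.

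From these counts, edgeR 4.0.16 in R 4.3.3 fitted all 36 libraries with 1 mean per group. Genes passing filterByExpr over the 12 groups were tested (13436), with TMM scaling and quasi-likelihood tests and Benjamini-Hochberg adjustment over the genes tested in each comparison. Robust estimation was chosen after counts of calls had been seen with and without it (188 and 193). Calls needed an adjusted p under 0.05, and an SE is the size of the log2 fold change divided by the square root of its F statistic. Low-count fold changes are moderated by edgeR's prior count. The procedure was tested on simulated data. With totals of 3716709 to 5992831, genes at a few CPM rest on few counts, and intervals from counts cover counting error only. No 2 libraries of a group held counts alike within sampling noise.

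Groups came from titles. The comparisons, gene lists (31 pathways and 10 cell types) and alternatives, such as DESeq2 1.42.0, were chosen with earlier results of these data known. Genes were named by rule: the 10 largest rises and 10 largest falls of called genes with at least 5 CPM in the higher group and groups that did not overlap, up to 4 called genes per list and direction, 20 landmark genes, and 4 genes of smallest p in each other comparison. Genes named beyond this, among them Col4a1, Thbs1, Fn1, Dcn, Lox, Lrat, Reln, Acta2, Itgam, Gpnmb, Dusp1, Socs3, Irs2, Pck1, Fbp1, Scd1, Srebf1, Hamp and Foxm1, were chosen after their values were seen. Promoter motifs were shown for the immediate early list, which tied with the extracellular matrix list at 13 calls, and this choice and that of the CArG box followed the values. A few results are not reported here.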

Additional observations from a re-analysis of the deposited data

Results flagged for a closer look

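The change from before to 96 differed between old and young mice for 2 genes by edgeR's quasi-likelihood test of the difference with Benjamini-Hochberg adjustment. Ablim3 fell in young and rose in old mice, a difference of 1.87 on the log2 scale (old minus young). Slc16a1 rose in old mice and overlapped between groups in young mice, a difference of 2.05. All 3 young libraries at 96 lay below all 3 before for Ablim3, and all 3 old libraries at 96 lay above all 3 before for both genes. Ablim3 was not called without the libraries holding Y-linked transcripts (adjusted p 0.0973). Slc16a1 was not called in 8 of 22 alternatives, which were the fit of the groups compared alone and 7 of the fits that left out 1 library (adjusted p up to 0.144).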

How the results depend on the processing

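For young liver at 96 against before, the 188 calls became 442 in the 18 young libraries, 580 in the 6 libraries compared, 20 without the libraries holding Y-linked transcripts, 394 with DESeq2 and 51 to 113 when 1 library was left out. The 50 calls against 72 became 95 with total-count scaling, 27 with genes of at least 1 count in any library, 631 in the young libraries, 151 in the groups compared, 163 without the libraries holding Y-linked transcripts, 135 with Y-linked transcripts as a term, 83 with a replicate block, 285 with DESeq2 and 0 to 315 when 1 library was left out. Between 96 and 120, the 0 calls became 1 with Y-linked transcripts as a term, 1 with DESeq2, and 0 to 6 when 1 library was left out (6 without replicate 2 and 5 without replicate 3 at 120). For the difference between ages, the 2 calls became 5 in the groups compared, 1 without the libraries holding Y-linked transcripts, 4 with Y-linked transcripts as a term, 9 with DESeq2 and 1 to 3 when 1 library was left out. The causes were not tested. Other alternatives run for these 4 counts kept them within 1.5 times, and none of the 46 called genes named changed direction under any alternative run.

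With a replicate block, 215 genes were called against before and 83 against 72. Deviations of same-numbered libraries before and at 96 correlated at -0.14, -0.36 and 0.22. They are deviations from means of 3 libraries, so by themselves they cannot decide whether the numbers pair the libraries. Not every library correlated best with its own number. Y-linked transcripts stood at 277 CPM in replicate 1 before and at 0 in replicate 1 at 96. They stood at 0 in replicate 2 before and at 242 CPM in replicate 2 at 96. By these values, the libraries numbered 1, and those numbered 2, did not come from the same animal before and at 96.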
